A study of Mus musculus with 20 samples.

Results

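The 10 genes described here encode the core machinery of ovarian steroid synthesis and progesterone breakdown. They were taken as a list of names (Star, Cyp11a1, Hsd3b1, Cyp17a1, Cyp19a1, Hsd17b1, Akr1c18, Srd5a1, Fdx1 and Fdxr), and each was found once among the 54838 genes counted in the ovary libraries. Their transcripts were followed in 20 ovary libraries of female mice, with 5 animals per line and stage (ctrl and FL1, each in estrus and in diestrus), all with a label age of 77 days and the genotype label WT. FL1 is the Dummerstorf high-fertility line, bred for many generations for litter performance, and ctrl is the unselected line that descends from the same outbred founder line. The labels name no engineered allele and no treatment. A line difference is therefore a difference between 2 outbred populations that were bred apart, and selection and drift cannot be told apart in it. Each library stands for 1 animal per its label, so the p-values measure the spread between animals of a group.

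Steroid synthesis in the ovary begins when the protein made by Star carries cholesterol to the inner mitochondrial membrane. There Cyp11a1 cleaves the side chain of cholesterol to give pregnenolone, with electrons passed on from Fdxr through Fdx1. Hsd3b1 turns pregnenolone into progesterone, the main product of the corpus luteum. In theca cells Cyp17a1 makes androgens, and in granulosa cells Cyp19a1 (aromatase) and Hsd17b1 turn androgens into estradiol. Akr1c18 and Srd5a1 act on progesterone: Akr1c18 is the rodent enzyme that inactivates progesterone and is known as a mark of regressing corpora lutea, and Srd5a1 reduces progesterone and androgens to their 5-alpha forms. In estrus the ovulatory follicles have just ruptured. In diestrus corpora lutea and growing follicles are found side by side. Luteal markers were measured in both stages, as given below.

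The promoters are shown because several of these genes moved together between the stages. RefSeq starts on the build GRCm38.p6 were at hand for 7 of the 10 genes, in 10 windows of 300 bases, 250 of them before the start. Star, Cyp17a1 and Hsd17b1 had no entry in the table. The windows were searched on both strands for the letters TCAAGG, which open the longer element known to be bound by Nr5a1 (steroidogenic factor) and are not the whole of it, and which were chosen with the sequences in view. They were present in 3 windows of 3 genes, against 14.4% of all 32851 promoter windows of the table. Given 5′ to 3′ on the strand of the gene, with the matches (TCAAGG or its complement CCTTGA) in capitals, the windows of Cyp11a1 (chr9:58014702-58015001, plus strand), Hsd3b1 (chr3:98859745-98860044, minus strand) and Fdx1 (chr9:51963553-51963852, minus strand) each hold the letters. The window of Akr1c18 (chr13:4150597-4150896, minus strand), shown for comparison, holds none.
Cyp11a1: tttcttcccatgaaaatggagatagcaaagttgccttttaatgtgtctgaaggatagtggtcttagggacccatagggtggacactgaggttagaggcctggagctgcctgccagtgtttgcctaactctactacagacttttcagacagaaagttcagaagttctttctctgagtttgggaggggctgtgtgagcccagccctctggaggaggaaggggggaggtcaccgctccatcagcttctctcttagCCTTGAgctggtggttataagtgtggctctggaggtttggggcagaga
Hsd3b1: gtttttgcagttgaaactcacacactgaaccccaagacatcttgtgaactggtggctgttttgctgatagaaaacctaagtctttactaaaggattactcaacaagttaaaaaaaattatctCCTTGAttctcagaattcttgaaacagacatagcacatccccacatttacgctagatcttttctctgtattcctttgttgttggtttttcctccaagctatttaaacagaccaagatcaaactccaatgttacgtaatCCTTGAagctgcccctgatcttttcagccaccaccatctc
Fdx1: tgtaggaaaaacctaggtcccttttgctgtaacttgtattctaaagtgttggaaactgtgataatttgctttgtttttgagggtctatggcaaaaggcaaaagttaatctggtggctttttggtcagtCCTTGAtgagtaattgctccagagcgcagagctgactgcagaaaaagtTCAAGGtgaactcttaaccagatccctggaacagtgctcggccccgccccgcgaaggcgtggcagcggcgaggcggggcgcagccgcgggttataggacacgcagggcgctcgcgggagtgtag
Akr1c18: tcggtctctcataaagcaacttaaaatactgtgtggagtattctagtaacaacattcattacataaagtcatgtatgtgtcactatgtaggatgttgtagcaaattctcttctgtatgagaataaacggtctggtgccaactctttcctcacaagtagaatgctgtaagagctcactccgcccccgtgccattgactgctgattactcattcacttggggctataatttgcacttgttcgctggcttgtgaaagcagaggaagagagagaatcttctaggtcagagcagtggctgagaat
With the start counted as position 0, the match of Cyp11a1 lay at 2 to 7, those of Hsd3b1 at -128 to -123 and 10 to 15, and those of Fdx1 at -122 to -117 and -74 to -69. A further start of Cyp11a1 (chr9:57997774-57998073) and the windows of Cyp19a1, Srd5a1 and Fdxr had no match. The matches did not follow the stage calls given below, since Fdx1 was called in neither line and Cyp19a1 and Srd5a1 were called in FL1. A match describes the letters and is not a binding site, and a missing match says only that these letters are not in the window.

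The counts came from QuantSeq 3′ mRNA-Seq, which reads transcripts from their 3′ ends. Depth was 5991223 to 10352718 counts per library. Levels are given as CPM, counts scaled to a common library size by TMM over all 20 libraries, and levels are compared between groups of 1 gene, not between genes. Differences are log2 fold changes (log2FC) of edgeR's quasi-likelihood test with the Benjamini-Hochberg adjustment over all tested genes, and a gene is called where its adjusted p is at most 0.05. All 10 genes passed the filter on low counts in every comparison. Ovary identity was checked on marker lists. Summed oocyte markers reached 105 to 348 CPM, summed luteal markers 2303 to 10960 CPM, and summed granulosa markers 1296 to 5428 CPM, but the defining markers Amh of granulosa cells and Insl3 of theca cells were at or near 0 in all libraries. Of the 4 adrenal markers, Cyp21a1 and Cyp11b2 had 0 counts in all 20 libraries, where 3 counts would be 0.290 to 0.501 CPM. Mc2r had 4 counts in its highest library, ctrl estrus replicate 4. Cyp11b1, however, was found in all 10 estrus libraries at 3.09 to 49.8 CPM. One library, ctrl estrus replicate 5, stood apart, with a median correlation of 0.938 to the other libraries of its group against at least 0.955 in the remaining libraries, and results that rest on it are given with and without it.

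Together the 10 genes took a median of 2.19% of all counts in ctrl estrus and 2.65% in FL1 estrus. In diestrus the medians were 4.05% in ctrl and 3.80% in FL1. Over all libraries the share lay between 1.73% and 4.82%. As these are whole ovaries, a change in the number of cells of a type and a change in RNA per cell cannot be told apart.

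**Figure D1:**
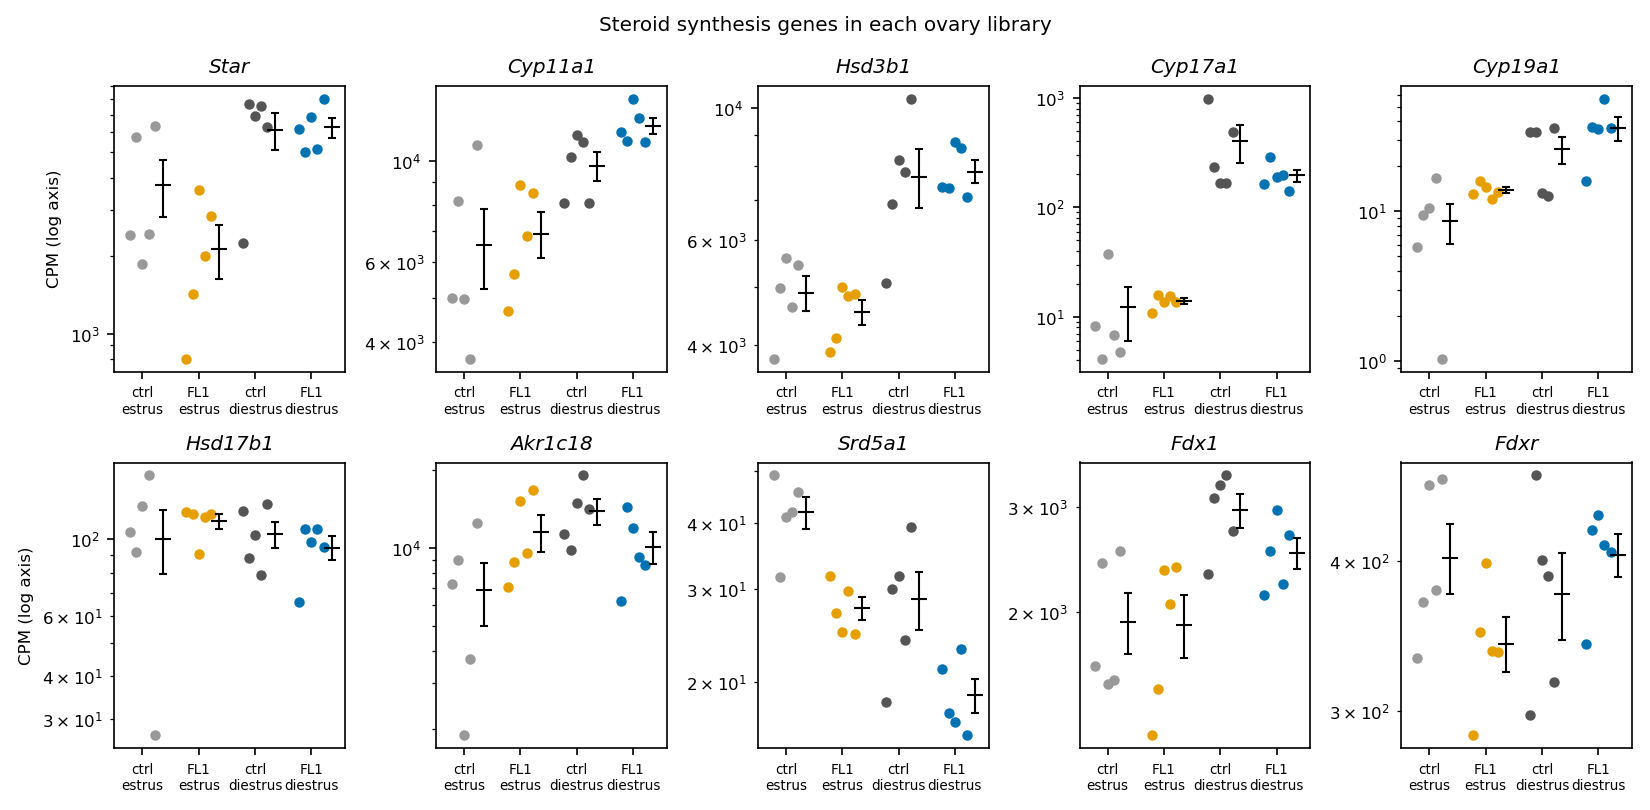
CPM on log axes of the 10 genes in each of the 20 libraries (points, in replicate order within a group), with the mean and standard error of the 5 libraries of a group in black. Cyp17a1 lies at 4.14 to 37.8 CPM in estrus and 142 to 978 CPM in diestrus, whereas Hsd17b1 has nearly the same group means in all 4 groups.

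The stage comparison asked which of the genes differ between diestrus and estrus within a line. In FL1, 6 of the 10 genes were called, against 15.9% of all 13350 tested genes. Star, Cyp11a1, Hsd3b1, Cyp17a1 and Cyp19a1 rose in diestrus, where 8.49% of all genes were called higher, and Srd5a1 fell, where 7.42% of all genes were called lower. In ctrl only Cyp17a1 was called, 1 of 10 against 2.85% of 13334 tested genes (1.06% higher and 1.78% lower in diestrus). The median log2FC of the 10 genes was 0.59 in FL1 and 0.63 in ctrl, and that of all tested genes was -0.0071 in FL1 and 0.0058 in ctrl. At an unadjusted p under 0.05, 8 of the genes in FL1 and 7 in ctrl differed between the stages. The share of all tested genes under that threshold was not counted, so these numbers cannot be set against it.

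Cyp17a1, the androgen-making enzyme of theca cells, had the largest stage difference of the 10 genes in both lines. In ctrl estrus it reached 8.31, 4.14, 37.8, 6.89 and 4.82 CPM, and in ctrl diestrus 978, 234, 165, 166 and 492 CPM. In FL1 it reached 10.7, 15.7, 13.7, 15.4 and 13.7 CPM in estrus and 165, 288, 190, 197 and 142 CPM in diestrus. Every diestrus library was above every estrus library, in both lines. The SD was 14.3 CPM in estrus and 346 CPM in diestrus in ctrl and 1.97 CPM and 55.7 CPM in FL1, where estrus replicate 3 and diestrus replicate 1 of ctrl stood far above the rest of their groups, and the spread was not tested. The log2FC was 5.02 in ctrl (SE 0.71, adjusted p = 0.00299) and 3.83 in FL1 (SE 0.18, adjusted p = 1.10e-09) with edgeR's quasi-likelihood test. Without ctrl estrus replicate 5 it was 4.84 in ctrl (adjusted p = 0.00519).

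Star, the cholesterol carrier of the first step, was clearly separated by stage in FL1. There it had 799, 1425, 3580, 1988 and 2830 CPM in estrus and 6179, 5007, 6860, 5153 and 8035 CPM in diestrus. In ctrl it had 2408, 5729, 1849, 2432 and 6305 CPM in estrus and 2243, 7698, 6892, 7518 and 6254 CPM in diestrus. The ranges did not overlap in FL1 but overlapped in ctrl, where diestrus replicate 1 stood as low as the estrus libraries. The log2FC was 1.56 in FL1 (SE 0.29, adjusted p = 0.00142) and 0.71 in ctrl (SE 0.38, adjusted p = 0.421, 95% interval -0.12 to 1.53). Leaving out ctrl estrus replicate 5 gave 0.99 in ctrl (adjusted p = 0.174).

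Cyp11a1, the side-chain cleavage enzyme, showed a similar order. Its CPM were 4690, 5647, 8845, 6848 and 8502 in FL1 estrus and 11558, 11020, 13643, 12380 and 10957 in FL1 diestrus, without overlap. The log2FC was 0.79 in FL1 (SE 0.15, adjusted p = 0.00219). In ctrl the estrus libraries had 5012, 8155, 4979, 3681 and 10831 CPM and the diestrus libraries 8061, 10171, 11361, 10988 and 8095 CPM. Replicate 5 of ctrl estrus was higher than 3 of the diestrus libraries. With it the log2FC in ctrl was 0.57 (adjusted p = 0.312), and without it 0.84 (adjusted p = 0.0427), so the call in ctrl turned on this library. A further gene, Gm17322, overlaps Cyp11a1 on the same strand.

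Hsd3b1, which makes progesterone, had the smallest standard error of the stage differences in FL1 apart from Fdxr. It was at 3892, 4116, 5011, 4837 and 4867 CPM in FL1 estrus and at 7358, 7341, 8747, 8549 and 7098 CPM in FL1 diestrus, a log2FC of 0.78 (SE 0.11, adjusted p = 9.90e-05). In ctrl it was at 3797, 4989, 5600, 4634 and 5461 CPM in estrus and at 5082, 6899, 8173, 7805 and 10342 CPM in diestrus. The groups overlapped in ctrl through diestrus replicate 1 alone. The log2FC in ctrl was 0.64 (SE 0.18, adjusted p = 0.0810), and without ctrl diestrus replicate 1 it was 0.76 (adjusted p = 0.0241). That was the 1 fit of 10 that called it, as the leave-one-out values ran from 0.52 to 0.76 (adjusted p up to 0.174).

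The electron carriers of Cyp11a1 behaved less clearly. Fdx1 had group means of 1926 ± 501 CPM in ctrl estrus, 1905 ± 513 CPM in FL1 estrus, 2961 ± 433 CPM in ctrl diestrus and 2510 ± 336 CPM in FL1 diestrus (SD, n = 5 each). The log2FC between the stages was 0.62 in ctrl (SE 0.18, adjusted p = 0.0874) and 0.40 in FL1 (SE 0.16, adjusted p = 0.0984), and neither passed the threshold. Without ctrl estrus replicate 5 the value of Fdx1 in ctrl was 0.75 (adjusted p = 0.0256). Fdxr lay between 286 and 472 CPM in all libraries. Its stage difference was -0.10 in ctrl (95% interval -0.42 to 0.21, adjusted p = 0.812) and 0.24 in FL1 (95% interval 0.05 to 0.44, adjusted p = 0.0867).

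Cyp19a1, aromatase, was measured at low levels, from 6 to 397 counts per library. It had 13.1, 16.0, 14.5, 12.1 and 13.5 CPM in FL1 estrus and 15.9, 36.4, 35.8, 56.4 and 35.8 CPM in FL1 diestrus. The log2FC was 1.38 in FL1 (SE 0.23, adjusted p = 0.000699), with 4 of 5 diestrus libraries above all estrus libraries. In ctrl estrus it had 5.77, 9.43, 10.5, 16.7 and 1.03 CPM, the lowest in replicate 5, and in ctrl diestrus 34.0, 33.8, 13.2, 12.6 and 36.1 CPM. The log2FC was 1.56 in ctrl (SE 0.48, adjusted p = 0.117) and 1.29 without ctrl estrus replicate 5 (adjusted p = 0.0763). Hsd17b1, the partner of Cyp19a1 in estradiol synthesis, had group means of 101 ± 47.3, 113 ± 12.5, 104 ± 20.5 and 94.7 ± 17.0 CPM in ctrl estrus, FL1 estrus, ctrl diestrus and FL1 diestrus (SD, n = 5 each). Its stage difference was 0.04 in ctrl (95% interval -0.64 to 0.73, adjusted p = 0.974) and -0.25 in FL1 (95% interval -0.51 to 0.01, adjusted p = 0.177).

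Akr1c18, the progesterone-inactivating enzyme, was not called between the stages in either line. In ctrl it had 7269, 8961, 1887, 3739 and 12527 CPM in estrus and 11383, 9841, 14919, 19099 and 14176 CPM in diestrus. In FL1 it had 7083, 8870, 15194, 9610 and 16849 CPM in estrus and 6264, 14406, 11985, 9255 and 8634 CPM in diestrus. The values thus overlapped in both lines, with the higher group mean in diestrus for ctrl and in estrus for FL1. The log2FC was 1.01 in ctrl (SE 0.39, adjusted p = 0.219) and -0.19 in FL1 (SE 0.24, adjusted p = 0.638). Without ctrl estrus replicate 5 the value in ctrl was 1.35 (adjusted p = 0.0622).

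Srd5a1, the steroid reductase, was the 1 gene of the list that was called lower in diestrus, and it passed in FL1 but not in ctrl. It had 31.8, 27.1, 24.9, 29.8 and 24.6 CPM in FL1 estrus and 21.2, 17.5, 16.9, 23.1 and 15.9 CPM in FL1 diestrus, without overlap, and fell by 0.54 on the log2 scale (SE 0.14, adjusted p = 0.0126). In ctrl it had 49.1, 31.6, 41.0, 41.9 and 45.6 CPM in estrus and 18.4, 29.96, 31.8, 24.0 and 39.3 CPM in diestrus. There the log2FC was -0.55 (SE 0.19, adjusted p = 0.154), nearly the same size but with wider spread. Srd5a1 overlaps Gm17108 on the same strand and Nsun2 on the opposite strand, and the strand setting of the counting is not given in the sources used here.

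**Figure D2:**
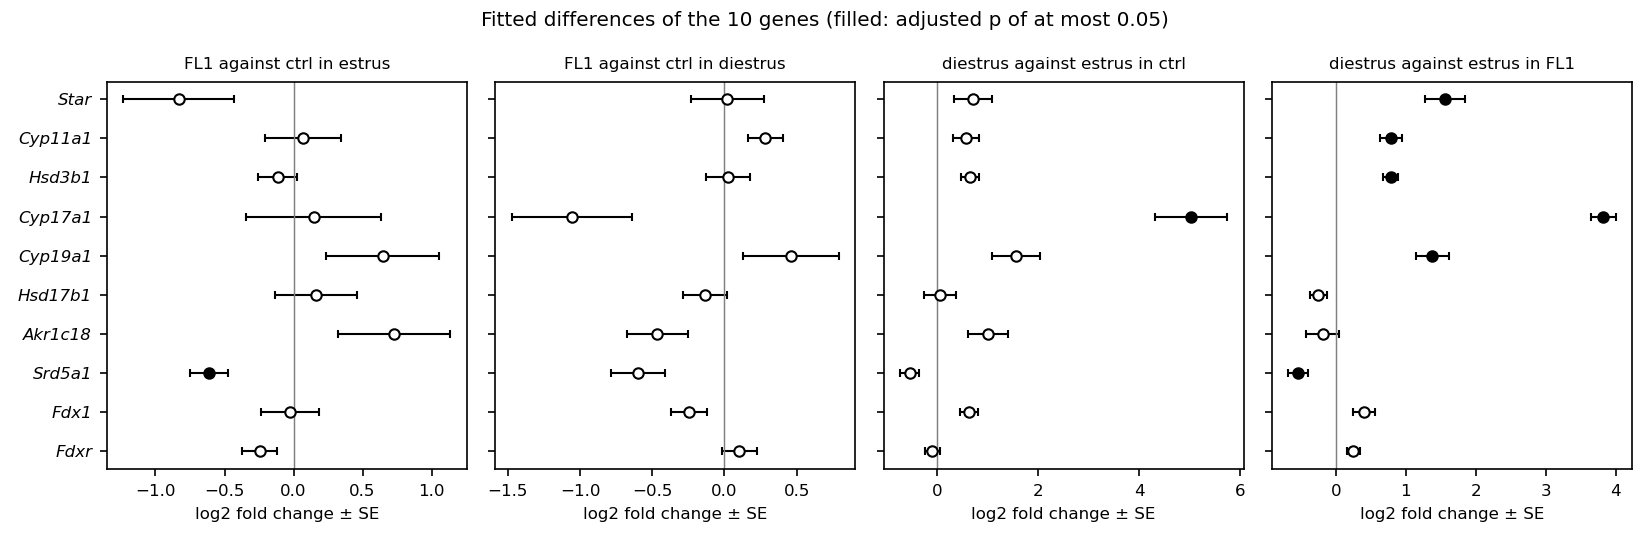
Log2 fold change with its standard error of each of the 10 genes in the 4 comparisons, 5 libraries against 5 each, where filled points have an adjusted p of at most 0.05 in edgeR's quasi-likelihood test. The axes differ in range between the panels. Filled points are 1 of 10 for the lines in estrus, 0 for the lines in diestrus, 1 for the stages in ctrl and 6 for the stages in FL1.

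The line comparison asked which genes of the list are stronger or weaker expressed in FL1 than in ctrl. In estrus 1 of the 10 genes was called, against 2.33% of 13374 tested genes (1.07% higher and 1.26% lower in FL1). This was Srd5a1. In diestrus 0 of 10 were called by edgeR and 0 by DESeq2, against 4.11% of 13259 tested genes by edgeR (2.29% higher and 1.82% lower). An unadjusted p under 0.05 was found for 4 of them, again without a count over all tested genes. The median log2FC of the list was 0.02 in estrus and -0.06 in diestrus. The medians of all tested genes were -0.0052 and -0.0093.

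Srd5a1 was lower in FL1 in both stages. In estrus the highest FL1 library (31.8 CPM) was just above the lowest ctrl library (31.6 CPM) and the other libraries were separate. The log2FC was -0.61 in estrus (SE 0.14, adjusted p = 0.0337) and -0.60 in diestrus (SE 0.19, adjusted p = 0.0973, 95% interval -1.002 to -0.20). Without ctrl estrus replicate 5 the estrus value was -0.57 (adjusted p = 0.0416). With 1 library left out at a time the log2FC in estrus ran from -0.70 to -0.55 and the adjusted p from 0.0127 to 0.0882, and 3 of the 10 fits called it. The call was lost without ctrl replicate 1, 3 or 4 or FL1 replicate 2, 3, 4 or 5. In diestrus the adjusted p was 0.0190 without ctrl diestrus replicate 1, the ctrl library with the lowest value. That was the 1 leave-one-out fit of 10 that called it, with an adjusted p of up to 0.198 in the others. The interaction of Srd5a1, the line difference in diestrus minus that in estrus, was 0.01 (95% interval -0.49 to 0.51, adjusted p = 0.995).

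Among the genes of progesterone synthesis, none was called between the lines. Star was at 3745 ± 2097 CPM in ctrl estrus and 2124 ± 1104 CPM in FL1 estrus (SD, n = 5 each), a log2FC of -0.83 (SE 0.40, adjusted p = 0.336). Cyp11a1 in diestrus was at 9735 ± 1573 CPM in ctrl and 11911 ± 1123 CPM in FL1, a log2FC of 0.28 (SE 0.12, adjusted p = 0.230). The ranges of the libraries overlapped for both genes, and neither difference passed after adjustment over all tested genes. For Hsd3b1 the log2FC was -0.12 in estrus (95% interval -0.41 to 0.18) and 0.02 in diestrus (95% interval -0.31 to 0.35), and neither was called. Fdx1 had a log2FC of -0.03 in estrus and -0.25 in diestrus, and Fdxr had -0.25 in estrus and 0.10 in diestrus, with adjusted p-values of 0.309 to 0.969.

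Cyp17a1 was not called between the lines either. In diestrus the log2FC was -1.06 (SE 0.42, adjusted p = 0.193). It was set in large part by ctrl diestrus replicate 1 with 978 CPM, without which the log2FC was -0.43 (adjusted p = 0.482). In estrus the log2FC was 0.15 (SE 0.49, adjusted p = 0.922). Without ctrl estrus replicate 3, with 37.8 CPM, it was 1.17 and passed the threshold (adjusted p = 0.0221), the 1 leave-one-out fit of 10 that did. That library also had the highest count of Cyp11b1, an adrenal enzyme gene, at 49.8 CPM. The other estrus libraries had 3.09 to 14.6 CPM of Cyp11b1, and diestrus libraries at most 0.899 CPM. The other adrenal markers, Cyp21a1, Cyp11b2 and Mc2r, had 0 counts in ctrl estrus replicate 3. The part of Cyp11b1 in the result was not tested. Cyp19a1 had a log2FC of 0.65 in estrus (SE 0.41, adjusted p = 0.480) and 0.46 in diestrus (SE 0.33, adjusted p = 0.521), and Hsd17b1 had 0.16 (adjusted p = 0.846) and -0.14 (adjusted p = 0.704).

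Akr1c18 pointed in opposite directions in the stages, but no single difference was called. The mean was 6877 ± 4218 CPM in ctrl and 11521 ± 4250 CPM in FL1 in estrus, and 13884 ± 3569 CPM in ctrl and 10109 ± 3149 CPM in FL1 in diestrus (SD, n = 5 each). The log2FC was 0.73 in estrus (SE 0.41, adjusted p = 0.410) and -0.46 in diestrus (SE 0.21, adjusted p = 0.273). The line-by-stage interaction, tested over all 20 libraries, was -1.20 (SE 0.50, unadjusted p = 0.0255, adjusted p = 0.344). Of the 10 genes, 0 were called in the interaction by edgeR and 0 by DESeq2, against 0.0565% of 14154 genes by edgeR. Akr1c18 was the 1 gene of the list with an unadjusted p under 0.05, a threshold not counted over all genes.

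Ratios of 2 genes of the pathway are measured within a library, and its scaling enters them only through the CPM added to each gene. In whole ovaries the mix of cell types can enter them too, which was not tested. For progesterone, Akr1c18 (breakdown) was set against Cyp11a1 (supply) as the log2 ratio of their CPM, with 0.5 CPM added to each. In estrus the ratio was 0.54, 0.14, -1.40, 0.02 and 0.21 in ctrl and 0.59, 0.65, 0.78, 0.49 and 0.99 in FL1. In diestrus it was 0.50, -0.05, 0.39, 0.80 and 0.81 in ctrl and -0.88, 0.39, -0.19, -0.42 and -0.34 in FL1. FL1 was thus mostly above ctrl in estrus and mostly below ctrl in diestrus, with 1 ctrl library inside the FL1 range in estrus. The FL1 minus ctrl difference was 0.80 in estrus and -0.78 in diestrus (exact permutation test, two-sided, p = 0.0159 and adjusted p = 0.0254 over 8 ratio tests for each). Between the stages it changed by -0.99 in FL1 (exact p = 0.00794, the smallest that 5 against 5 can give, adjusted p = 0.0212) and by 0.59 in ctrl (exact p = 0.119, adjusted p = 0.136). The difference between the line differences was -1.58, and it lay between -1.75 and -1.25 with 1 library left out at a time. It was formed after these values were seen and is given as a description. In ctrl estrus, replicate 3 lay far below the others at -1.40, and without it the line difference in estrus was 0.47, the lowest of the leave-one-out values, with an adjusted p of at most 0.0423 in all of them. As differences in medians the line differences were 0.52 and -0.84 and the stage difference in FL1 was -0.995 (exact permutation, p = 0.0476, adjusted p = 0.0635 for each). The FL1 stages, whose libraries did not overlap, gave no smaller p. The median test could therefore not pass the threshold here, and it does not decide whether the differences are stable.

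For estradiol, Cyp19a1 was set against Cyp17a1 in the same way. In estrus the ratio was -0.49, 1.10, -1.80, 1.22 and -1.80 in ctrl and 0.27, 0.03, 0.07, -0.33 and -0.02 in FL1. In diestrus it was -4.83, -2.77, -3.60, -3.67 and -3.75 in ctrl and -3.34, -2.97, -2.39, -1.79 and -1.98 in FL1. Within each line all diestrus libraries lay below all estrus libraries, a shift of -3.37 in ctrl and -2.50 in FL1 (exact permutation test, p = 0.00794, adjusted p = 0.0212 for each). Between the lines the difference was 0.36 in estrus (exact p = 0.611) and 1.23 in diestrus (exact p = 0.0238, adjusted p = 0.0317). The diestrus difference was less stable, from 0.95 to 1.47 with 1 library left out, and 3 of these 10 tests kept an adjusted p of at most 0.05. As a difference in medians each of the 3 differences that had passed had p = 0.0476 by exact permutation (adjusted p = 0.0635). The stage shifts, with all libraries apart in both lines, gave no smaller p. The median test could therefore not pass here, and it does not decide whether the differences are stable. The difference between the line differences was 0.87.

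**Figure D3:**
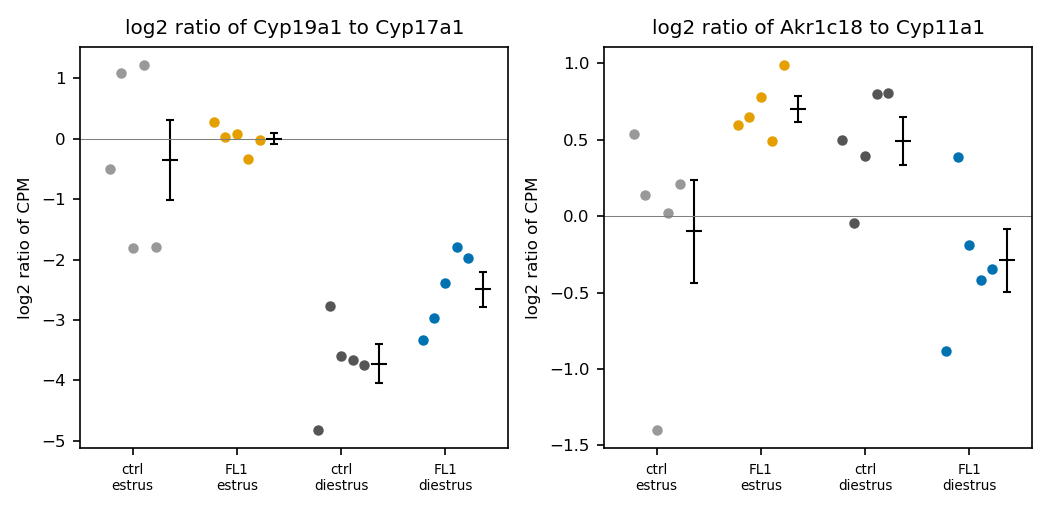
Log2 ratio of CPM within each library for Cyp19a1 to Cyp17a1 (left) and Akr1c18 to Cyp11a1 (right), as points per library in replicate order with the mean and standard error of the 5 libraries in black. On the right FL1 lies at 0.49 to 0.99 in estrus and at -0.88 to 0.39 in diestrus, whereas the ctrl means are -0.10 and 0.49.

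Within the groups some pairs of the listed genes also varied together or in opposite directions from animal to animal. For each of the 45 pairs the deviations of log2 CPM from the group mean were correlated over the 20 libraries. An adjusted permutation p of at most 0.05 for Pearson's r was found for 9 pairs, 6 of them positive. The share of all gene pairs that would pass was not counted, so this number cannot be set against it. Star and Fdx1 had r = 0.91 (rho = 0.91, permutation p adjusted over the 45 pairs 0.000900 and 0.00113) and 0.90 without the 2 farthest libraries. The 2 farthest libraries of a pair were those farthest from the median of its first-named gene. Cyp11a1 and Fdx1 had r = 0.88 (rho = 0.90, adjusted permutation p = 0.000900 and 0.00113), and 0.91 without the 2 farthest libraries. Star and Cyp11a1 had r = 0.81 (rho = 0.89, adjusted permutation p = 0.00480 and 0.00285), and 0.82 without the 2 farthest libraries. Star, Cyp11a1 and Fdx1 thus varied together between animals of a group. Fdxr, the other gene of the mitochondrial step, had r = 0.51 with Star, 0.50 with Cyp11a1 and 0.52 with Fdx1, and none of these passed (adjusted permutation p = 0.117, 0.117 and 0.0884).

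Cyp19a1 and Hsd17b1, the estradiol pair, had r = 0.88 (rho = 0.72, adjusted permutation p = 0.0127 and 0.0132), which was 0.66 without the 2 farthest libraries. Cyp11a1 and Hsd17b1 went in opposite directions with r = -0.76 (rho = -0.71, adjusted permutation p = 0.00911 and 0.0132), but r was -0.47 without the 2 farthest libraries. The size of r thus depended on them, whereas rho, which uses ranks, passed with all 20 libraries. In ctrl estrus replicate 5 Cyp19a1 and Hsd17b1 were at 1.03 CPM and 26.9 CPM, the lowest of all 20 libraries, and Star and Cyp11a1 at 6305 CPM and 10831 CPM were the highest of their group. Star and Cyp17a1 had r = -0.62 (rho = -0.53, adjusted permutation p = 0.0133 and 0.0818). Libraries share depth and cell composition, so the pairs are not independent of each other.

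**Figure D4:**
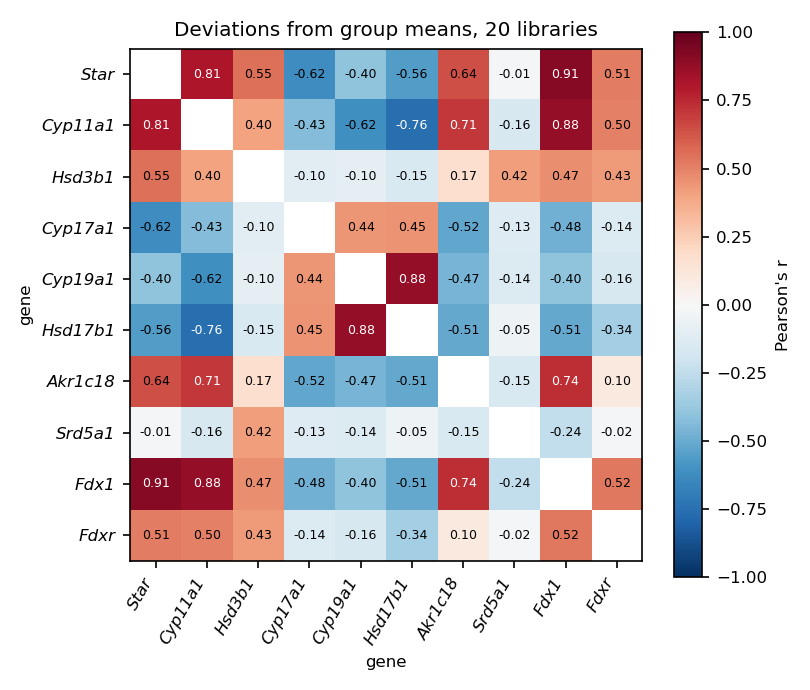
Pearson's r between the deviations of log2 CPM from the group means for each pair of the 10 genes, over 20 libraries, on a scale from -1 (blue) to 1 (red). Star, Cyp11a1, Fdx1 and Akr1c18 are positive to each other (0.64 to 0.91), and Cyp19a1 and Hsd17b1 form a pair with 0.88.

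Over all 14141 genes compared, the gene whose deviations were most like those of Star was Avpi1 (r = 0.92), for Cyp11a1 it was Slc25a39 (r = 0.92) and for Fdx1 it was Rhod (r = 0.93). Akr1c18 was most like Sfrp4 (r = 0.93), a gene known from luteal cells. Cyp17a1 was most like Nr5a1 (r = 0.83). For Hsd3b1 the gene was Timp3 (r = 0.86), for Cyp19a1 Mfsd2a (r = 0.89), for Hsd17b1 Ccng2 (r = 0.91), for Srd5a1 Zfp715 (r = 0.85) and for Fdxr Gamt (r = 0.82). These are the highest of many correlations over 20 libraries and are given without a test.

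Of 47 further genes of the steroid pathway (cholesterol supply, electron partners, related enzymes, inactivation, regulators and receptors), 43 were tested in each comparison. In FL1 13 were called higher and 4 lower in diestrus, against 8.49% and 7.42% of all tested genes. In ctrl 4 were called higher (Hsd17b7, Akr1c14, Akr1cl and Lhcgr) and 0 lower, against 1.06% and 1.78%. Between the lines, 2 were called higher and 2 lower in FL1 in estrus, against 1.07% and 1.26%, and 4 higher and 2 lower in diestrus, against 2.29% and 1.82%. In the interaction 0 were called by edgeR. The lists were chosen with earlier results of these data known, so counts above these shares are not independent support. Of the 9 supply genes 0 were called between the stages in ctrl, with a median log2FC of 0.35 against 0.0058 for all tested genes. In FL1 the median was 0.77 against -0.0071 for all tested genes. There 1 supply gene fell in diestrus, Tspo, from 154 to 216 CPM in estrus to 110 to 151 CPM in diestrus, and 6 rose. Among those that rose were Stard4 (log2FC 1.43, SE 0.11), a cytosolic cholesterol carrier, Scarb1 (log2FC 1.18, SE 0.14), the receptor for high-density lipoprotein, and Soat1 (log2FC 1.01, SE 0.11), which esterifies cholesterol for storage.

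Hsd17b7, an enzyme of the same family as Hsd17b1 that is known from the corpus luteum and from cholesterol synthesis, had the largest stage difference of the further genes. It was at 66.9, 60.2, 47.4, 52.9 and 89.9 CPM in ctrl estrus and at 40.1, 41.7, 128, 42.9 and 45.1 CPM in FL1 estrus. In diestrus it reached 416, 640, 1027, 894 and 90.8 CPM in ctrl and 3303, 1982, 2528, 2894 and 2046 CPM in FL1. Every FL1 diestrus library was above every ctrl diestrus library. The log2FC from estrus to diestrus was 5.41 in FL1 (SE 0.32, adjusted p = 1.56e-08) and 3.27 in ctrl (SE 0.48, adjusted p = 0.00360). The line difference of Hsd17b7 in diestrus was 2.05 (SE 0.43, adjusted p = 0.0152). Hsd17b1, by contrast, had no called difference in any comparison. The interaction of Hsd17b7 was 2.14 (SE 0.58, adjusted p = 0.142) and was not called.

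Lhcgr, the receptor for luteinising hormone that drives steroid synthesis, moved the same way. It was at 46.8 to 94.4 CPM in ctrl estrus, 77.2 to 123 CPM in FL1 estrus, 81.4 to 357 CPM in ctrl diestrus and 341 to 699 CPM in FL1 diestrus. The log2FC of Lhcgr between the stages was 2.64 in FL1 (SE 0.18, adjusted p = 6.30e-08) and 1.75 in ctrl (SE 0.34, adjusted p = 0.0161), and the line difference in diestrus was 1.43 (SE 0.32, adjusted p = 0.0209). In ctrl diestrus the lowest library was replicate 5 for both Hsd17b7 and Lhcgr.

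In estrus Por, the reductase that feeds electrons to Cyp17a1 and Cyp19a1, was lower in FL1 with 83.4, 97.6, 129, 125 and 135 CPM than in ctrl with 162, 165, 180, 183 and 230 CPM. The groups did not overlap, and the log2FC was -0.70 (SE 0.15, adjusted p = 0.0228). Hsd17b2, which oxidises estradiol and testosterone, was higher in FL1 with 11.1 to 21.6 CPM than in ctrl with 1.89 to 6.57 CPM (log2FC 1.53, SE 0.29, adjusted p = 0.0134). Akr1c14, which works on the products of Srd5a1, was higher with 81.9 to 185 CPM than in ctrl with 27.4 to 84.2 CPM (log2FC 1.19, SE 0.27, adjusted p = 0.0342). Esr1, the estrogen receptor alpha gene, was lower with a log2FC of -0.74 (SE 0.16, adjusted p = 0.0263). Por and Akr1c14 overlap other annotated genes, as does Hsd17b2.

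In diestrus 6 further genes were called between the lines. Of these, 3 came from the supply list, which made up 9 of the 43 tested genes, and the others were Hsd17b7, Lhcgr and Hsd11b1. Soat1 (log2FC 0.63, SE 0.14, adjusted p = 0.0208) and Npc2 (log2FC 0.64, SE 0.12, adjusted p = 0.00794), a carrier of cholesterol out of lysosomes, were higher in FL1. Npc1, the membrane partner of Npc2 in the lysosome, was lower (log2FC -0.64, SE 0.09, adjusted p = 0.000893), and Hsd11b1, which regenerates glucocorticoids, was also lower (log2FC -1.53, SE 0.35, adjusted p = 0.0238). Nr5a1, the factor whose element opens with TCAAGG, was called in none of the comparisons, with a log2FC of 0.31 (adjusted p = 0.386) in ctrl and 0.23 (adjusted p = 0.0744) in FL1 between the stages.

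**Figure D5:**
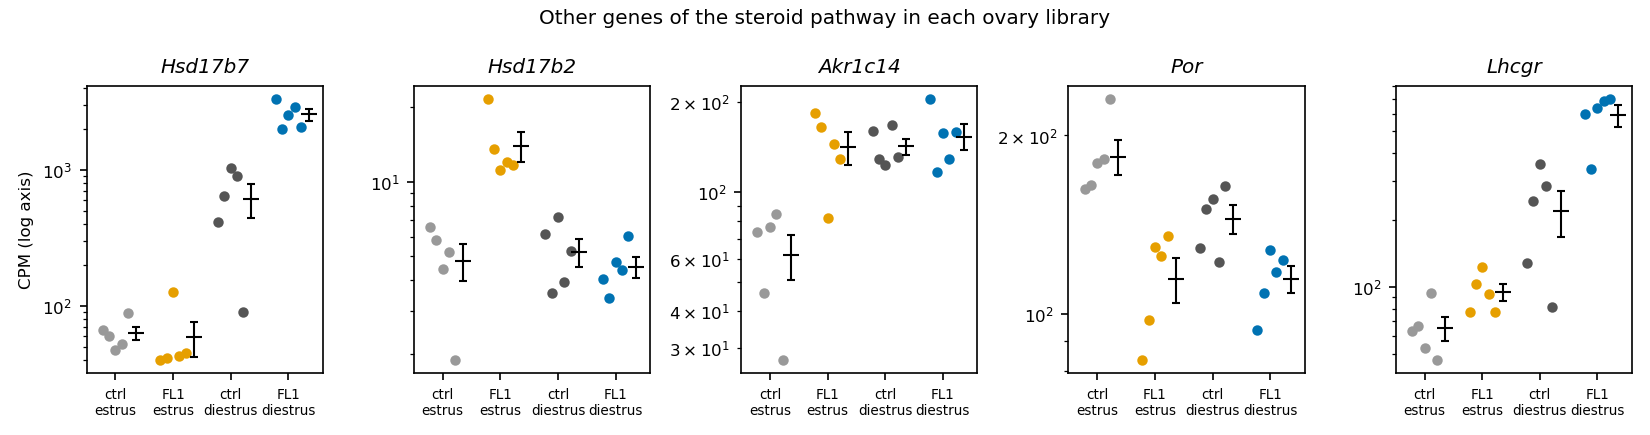
CPM on log axes of Hsd17b7, Hsd17b2, Akr1c14, Por and Lhcgr in each library (points), with the mean and standard error of the 5 libraries of a group in black. Hsd17b7 lies at 1982 to 3303 CPM in FL1 diestrus and at 90.8 to 1027 CPM in ctrl diestrus.

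Cell type markers moved with the stage as well, among them markers of luteal, granulosa and theca cells, in which genes of the list act. The 5 luteal markers (Lhcgr, Ptgfr, Prlr, Parm1 and Sfrp4) summed to 2903 to 4912 CPM in FL1 estrus and 7489 to 9922 CPM in FL1 diestrus, with 4 called higher and 1 lower. In ctrl they summed to 2303 to 7857 CPM in estrus and 6513 to 10960 CPM in diestrus, with 1 called higher and 1 lower. Parm1 was the luteal marker called lower in both lines. Lhcgr, Ptgfr and Prlr, and Fshr of the granulosa list, are also among the further pathway genes, so these calls are in part the same. Of all tested genes 8.49% were called higher and 7.42% lower in diestrus in FL1, and 1.06% and 1.78% in ctrl. The 7 granulosa markers summed to 2996 to 4821 CPM in FL1 estrus and 3928 to 5297 CPM in FL1 diestrus, with 3 called higher. In ctrl estrus replicate 5 the granulosa sum was 1296 CPM, the lowest of all libraries. The same library had the highest sum of the 4 fat markers (Adipoq, Plin1, Cfd and Lep), 104 CPM against a median of 31.4 CPM in its group. In ctrl 1 granulosa marker was called higher in diestrus. Blood markers were also higher in diestrus in FL1, with 4 of 5 called. In FL1 1 theca marker was called higher and 1 oocyte marker lower in diestrus. Cyp11b1, the 1 adrenal marker that could be tested, was lower in diestrus in both lines, with a log2FC of -5.88 in ctrl (adjusted p = 0.00115) and -5.96 in FL1 (adjusted p = 7.36e-05) in edgeR's test. Of the 4 macrophage markers, 1 was called between the stages, Cd68 in ctrl, which was lower in diestrus. Between the lines, Lyz2 was called higher in FL1 in estrus, and Lyz2 and Cd68 in diestrus, against 1.07% and 2.29% of all tested genes. The macrophage markers summed to 163 to 238 CPM in ctrl estrus and 214 to 458 CPM in FL1 estrus, and to 118 to 223 CPM in ctrl diestrus and 163 to 471 CPM in FL1 diestrus. In diestrus 1 granulosa marker (Foxl2) and 1 blood marker (Hba-a2) were also called higher in FL1. The part of these markers in the stage and line differences of the 10 genes was not tested.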

How the data were processed

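The data are QuantSeq 3′ mRNA-Seq libraries of 20 mouse ovaries, 5 for each combination of line (FL1, ctrl) and stage (estrus, diestrus). Groups were taken from the sample titles, because the label's source name gives FL1 also for ctrl animals. The authors deposited raw read counts per Ensembl gene, 1 table per library, without normalization or pooling. The submitters' processing notes name STAR, Cuffdiff and the build GRCm38. The tool and strand setting of the counting are not given in the sources used here. No member had a near-identical copy elsewhere: fewer than 50 words of 31 nt from its final 300 nt occurred in any other gene.

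Gene names and positions came from GENCODE M21, which has 54809 of the 54838 counted genes. Counts were tested with the quasi-likelihood test of edgeR 4.0.16 in R 4.3.3, with TMM normalization and the filterByExpr filter at a minimum count of 10, within the 10 libraries of each comparison and over all 20 libraries for the interaction. P-values were adjusted over all tested genes by the Benjamini-Hochberg method. The SE of a log2FC is its absolute value divided by the square root of F, and 95% intervals use the t quantile of the fit. The test was tried on simulated counts with known changes. Ratios of 2 genes (0.5 CPM added) were compared by exact permutation, two-sided, and correlations by 100000 permutations in Python 3.11.15 with scipy 1.17.1. For log2 CPM in correlations a prior count of 2 was used. Correlations and chi-square values of the counts showed no duplicate library.

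Named genes are the 10 members, the called genes of the pathway lists with a few others, and the gene most like each member in its deviations from group means. The members and lists were chosen with earlier results of these data known. Their counts set against all tested genes are therefore a description and not independent support. Alternatives were RLE normalization, DESeq2 1.42.0, a filter of at least 1 count in total, a single fit over the 20 libraries, a block for the replicate number, each library left out, and for the ratios 5 CPM added and the difference in medians. A count of 0 was read as allowing up to 3 counts, for counting error only.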

Additional observations from a re-analysis of the deposited data

Results flagged for a closer look

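Of 48 groups of 5 values (10 genes and 2 ratios in 4 groups), 4 held a library far from the others by Dixon's test, where chance alone flags about 1 in 20 groups. Star was lowest in ctrl diestrus replicate 1 at 2243 CPM, against 6254 to 7698 CPM in the other 4 libraries. Cyp17a1 was highest in ctrl estrus replicate 3 at 37.8 CPM, against 4.14 to 8.31 CPM in the others. Hsd17b1 was lowest in FL1 estrus replicate 3 at 90.7 CPM, against 117 to 120 CPM in the others. The log2 ratio of Akr1c18 to Cyp11a1 was lowest in ctrl estrus replicate 3 at -1.40, against 0.02 to 0.54 in the others.

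The line difference of the log2 ratio of Akr1c18 to Cyp11a1 was 0.80 in estrus (FL1 above ctrl) and -0.78 in diestrus (FL1 below ctrl), -1.58 apart. Permuting the line labels within each stage picked it out, but this test was chosen after the opposite directions were seen, so its p is not independent evidence and is not given. The interaction of Akr1c18 itself, over all genes, was not called (edgeR, adjusted p = 0.344). Without ctrl estrus replicate 3 the difference of the ratio was -1.25.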

How the results depend on the processing

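Of the 10 genes, 6 were called between the stages in FL1 as reported, 6 to 8 under the 5 other settings and 6 to 7 with 1 library left out. The stage comparison in ctrl was the least stable. There 1 gene was called as reported, 3 with DESeq2, 4 with a filter of at least 1 count in total, 5 with all 20 libraries in 1 fit, 2 with the replicate block and 1 to 3 with 1 library left out. Between the lines in estrus 1 was called as reported, 0 with the replicate block and 0 to 1 with 1 library left out. In diestrus 0 were called as reported, 2 (Cyp17a1 and Srd5a1) with a filter of at least 1 count in total and 0 to 1 with 1 library left out. In the interaction 0 of the 10 were called in any fit. The cause of these differences between settings was not tested.

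Over all genes, DESeq2 called 671 instead of 311 genes between the lines in estrus, 894 instead of 545 in diestrus, 768 instead of 380 between the stages in ctrl and 152 instead of 8 in the interaction. A filter of at least 1 count in total gave 477 in estrus, 846 in diestrus and 17 in the interaction, and 1 fit of all 20 libraries gave 531 in estrus and 909 between the stages in ctrl. With 1 library left out the counts ran from 175 to 418 in estrus, from 349 to 594 in diestrus, from 176 to 516 between the stages in ctrl and from 0 to 15 in the interaction.

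The log2 ratios kept their direction with 5 CPM added. As differences in medians, 6 of them had an adjusted p of 0.0635, with values of 1.28 (lines in diestrus), -3.18 (stages in ctrl) and -2.42 (stages in FL1) for Cyp19a1 to Cyp17a1 and 0.52, -0.84 (lines in estrus and diestrus) and -0.995 (stages in FL1) for Akr1c18 to Cyp11a1. The exact permutation p was 0.0476 for each of these 6, also where the libraries of the groups did not overlap. This alternative could therefore not pass the threshold here. With 1 library left out the line difference of Cyp19a1 to Cyp17a1 ran from 0.95 to 1.47 in diestrus and from -0.0035 to 0.75 in estrus.

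Some of the differences that were not called crossed 0 when 1 library was left out. The lines in estrus ran from -0.0858 to 0.34 for Cyp11a1, -0.0711 to 1.17 for Cyp17a1, -0.0743 to 0.36 for Hsd17b1 and -0.12 to 0.10 for Fdx1. The lines in diestrus ran from -0.19 to 0.12 for Star and -0.10 to 0.15 for Hsd3b1, and the stages in ctrl from -0.19 to 0.25 for Hsd17b1. The interaction ran from -0.0555 to 0.36 for Cyp11a1, -0.57 to 0.0938 for Cyp19a1 and -0.12 to 0.15 for Srd5a1.

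Replicate numbers are shared between groups, but same-numbered libraries are different animals, and their deviations correlated between -0.0930 and 0.126, so the numbers do not pair them. With the replicate number as a block, 230 genes were called between the lines in estrus (0 of the 10 genes, Srd5a1 with an adjusted p of 0.0615), 498 in diestrus, 259 between the stages in ctrl (2 of the 10), 2020 in FL1 (8 of the 10) and 12 in the interaction. No alternative with copies was run, as no member had one. Depth limits Cyp19a1 most, with 6 counts in its lowest library.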
